A study of Mus musculus with 6 samples.

Results

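The genes described here encode the mitochondrial ribosomal proteins, taken as every gene in the count data whose symbol is Mrpl (large subunit) or Mrps (small subunit), followed by a number and at most 1 letter. Of 55487 genes, 78 met this rule, 49 with an Mrpl and 29 with an Mrps symbol, and all 78 had enough counts to be tested. They were measured by bulk RNA sequencing of the left ventricle in male C57BL/6 wildtype mice, 8 weeks old, in a study titled for alcoholic cardiomyopathy. Mice of the ET group (3 libraries) ate food containing 5% ethanol over 10 days and received 1 ethanol gavage. Mice of the CONT group (3 libraries) ate the isocaloric food and received a maltose-dextrin gavage. Both groups were sampled 9 h after the gavage. No label ties a library to its own animal, and p-values may therefore reflect only technical spread between samples.

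Mitochondria carry their own ribosome, which makes the few respiratory chain subunits that mitochondrial DNA encodes. Its ribosomal RNAs come from mitochondrial DNA, while all of its proteins are encoded in the nucleus, made in the cytosol and imported. Some of the proteins are homologues of bacterial ribosomal proteins and others are found only in mitochondria. The heart depends on this machinery for oxidative phosphorylation, and in humans mutations in MRPL3, MRPL44 and MRPS22 cause cardiomyopathy.

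The libraries held from 31553420 to 33599269 expected counts in ET and from 28838386 to 37762233 in CONT. The 78 genes took 0.270% to 0.305% of these counts in ET and 0.305% to 0.335% in CONT. The lowest count of any of the 78 genes in a library was 282. A pair of libraries stood apart in their makeup. ET replicate 1 had 14528 TPM (transcript abundance scaled to library and transcript length) summed over 6 atrial muscle markers, against 473 and 73.02 in the other ET libraries. CONT replicate 3 had 2128 TPM of them, against 147 and 84.3 in the other CONT libraries. The 10 ventricular markers were detected in all libraries. The libraries were split into 2 sets at the widest gap in the effective length of the myosin gene Myh6. Both groups fell in each set. One held ET replicate 1 with CONT replicates 1 and 2 (1309 to 1365 bases). The other held ET replicates 2 and 3 with CONT replicate 3 (2061 to 2370 bases). Such a cut yields 2 sets in any data, and no label names these sets.

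The 78 genes lie on 17 chromosomes of the GRCm38 (mm10) build. A promoter window from RefSeq (GRCm38.p6), 250 bases before to 50 bases after the start of transcription, was matched for 69 of them. Factors known to drive nuclear genes of mitochondrial function were searched for by core letters on both strands. These were GCGCA, any base and GCGC for NRF1 (nuclear respiratory factor), CCGGAAG for ETS factors such as GABPA, and AAGATGGCG for YY1. The NRF1 letters stood in 13 of the 69 windows (18.8%), against 9.81% of 11041 windows of other tested genes and 4.78% of all 27025 windows. Those of ETS factors stood in 25 (36.2%), against 17.2% and 9.12%, and those of YY1 in 8 (11.6%), against 2.98% and 1.49%. In all, 34 of 69 windows (49.3%) held the NRF1 or the ETS letters, against 25.1% of the windows of other tested genes. Of general promoter elements, GGGGCGG of Sp/KLF factors stood in 34.8% against 42.7%, CCAAT in 39.1% against 38.3% and TATAAA in 5.80% against 7.47%. The windows of both sets were rich in G and C, with medians of 58.3% in the 69 and 60.7% in the others. The NRF1, ETS and YY1 letters all hold C followed by G. The median ratio of observed to expected counts of this pair was 0.818 in the 69 and 0.749 in the other tested genes. Over all windows it was 0.3885. The part of base composition in the match shares was not tested. A match describes letters and is not a bound site. The stretch from 150 bases before to 30 bases after the start is printed for 5 genes whose values are described later, chosen to show each kind of match, with the NRF1, ETS and YY1 matches in capitals.
Mrpl12, chr11:120484487-120484666, plus strand: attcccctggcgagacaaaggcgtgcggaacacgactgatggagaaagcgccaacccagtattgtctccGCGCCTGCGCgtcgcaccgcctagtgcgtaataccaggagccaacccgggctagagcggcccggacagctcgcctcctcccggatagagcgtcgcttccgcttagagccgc
Mrps21, chr3:95871485-95871664, minus strand: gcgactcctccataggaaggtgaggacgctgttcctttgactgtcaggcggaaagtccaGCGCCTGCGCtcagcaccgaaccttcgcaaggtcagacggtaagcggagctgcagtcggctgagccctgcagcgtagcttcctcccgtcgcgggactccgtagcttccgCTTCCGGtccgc
Mrps9, chr1:42851083-42851262, plus strand: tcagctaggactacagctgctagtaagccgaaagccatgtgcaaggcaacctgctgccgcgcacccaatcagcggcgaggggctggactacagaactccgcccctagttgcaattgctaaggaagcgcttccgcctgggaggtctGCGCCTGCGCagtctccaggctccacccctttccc
Mrps18a, chr17:46110854-46111033, plus strand: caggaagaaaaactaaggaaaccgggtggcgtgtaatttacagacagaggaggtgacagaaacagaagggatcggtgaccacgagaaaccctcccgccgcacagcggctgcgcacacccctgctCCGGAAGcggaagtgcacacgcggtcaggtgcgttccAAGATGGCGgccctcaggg
Mrpl36, chr13:73330859-73331038, plus strand: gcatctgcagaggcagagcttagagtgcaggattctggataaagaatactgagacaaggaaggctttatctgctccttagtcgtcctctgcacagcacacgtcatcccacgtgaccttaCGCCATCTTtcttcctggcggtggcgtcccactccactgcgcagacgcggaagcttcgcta
In Mrpl12 the NRF1 match began 81 bases before the start, in Mrps21 91 bases before it and in Mrps9 5 bases before it. Mrps21 also had an ETS match 18 bases after the start. Mrps18a had an ETS match 26 bases before and a YY1 match 11 bases after the start, and Mrpl36 a YY1 match 31 bases before it. The printed Mrpl36 window lies inside the gene as placed by the GENCODE annotation (73328513 to 73332178). Its RefSeq start is therefore not the start of the GENCODE gene. For genes with and without a match, the median log2 fold change of ET over CONT was -0.22 and -0.23 for NRF1, -0.235 and -0.23 for ETS, and -0.26 and -0.23 for YY1.

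**Figure D1:**
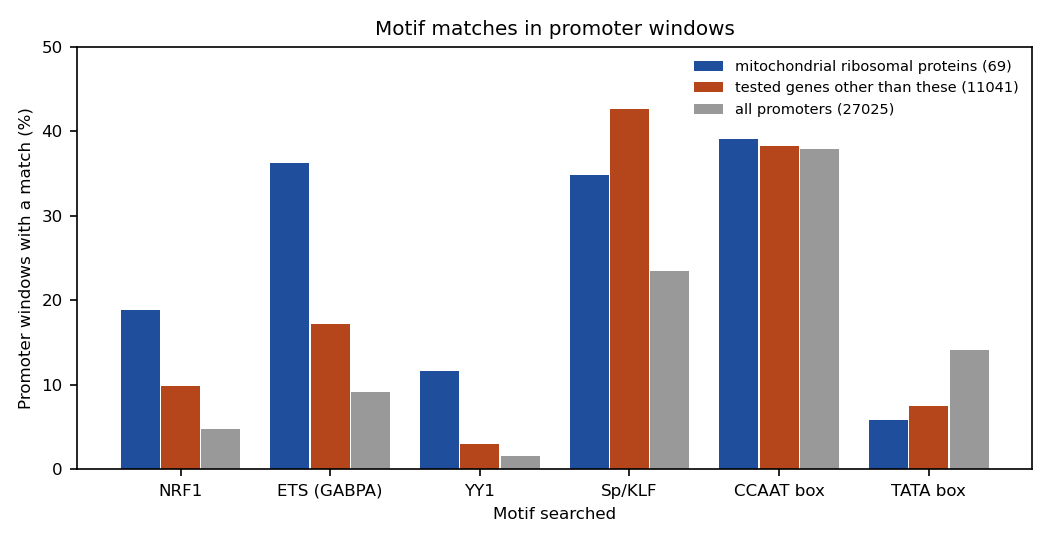
Share of promoter windows with at least 1 match to each motif (percent, both strands), for 69 mitochondrial ribosomal protein genes, 11041 other tested genes and all 27025 windows. The NRF1, ETS and YY1 shares are higher for the 69 genes (18.8%, 36.2% and 11.6%) than for the other tested genes (9.81%, 17.2% and 2.98%).

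Some of the 78 genes stand head to head with another protein-coding gene, on the opposite strand and with starts at most 1000 bases apart, counting only pairs that do not overlap. Pairs that overlap at their starts, such as Mrps11 and Mrpl46, are left out. This held for 18 of 78 (23.1%), against 1281 of 13355 other tested protein-coding genes (9.59%). Of the 16 partners outside the 78 that were tested, 12 had a log2 fold change below 0, with a median of -0.13. Over all tested genes 48.1% were below 0, with a median of 0.01, and the difference was not tested. Mrpl54 faces Apba3 at 26 bases, Mrps12 faces Sars2, the mitochondrial seryl-tRNA synthetase, at 172 bases, and Mrpl49 faces Fau at 59 bases.

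The mRNA levels of these proteins, which are built into 1 particle, differed widely from each other. Over all 6 libraries the mean level ran from 355.6 TPM for Mrpl42 to 8.79 TPM for Mrpl1, a ratio of 40.4, with a median over the genes of 38.1 TPM. TPM corrects for transcript length, so levels of different genes are compared on this scale. Across the 78 genes, TPM level and effective length had a Spearman's rho of -0.69 (n = 78 genes of the same libraries), the shorter genes being higher. TPM divides counts by this length, so a negative rho can be partly built in, and no conclusion is drawn from it. Only 5 genes were above 100 TPM, and together they held 26.7% of the summed TPM of the 78, while 17 genes were below 20 TPM. Large subunit symbols had a median of 39.7 TPM and small subunit symbols one of 35.7 TPM.

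Mrpl42, a large subunit protein specific to mitochondria, was at 340.1, 399 and 291 TPM in ET, against 350.01, 365 and 389 TPM in CONT. Mrps21, a small subunit homologue of bacterial S21 whose promoter is printed above, was at 276, 231 and 207 TPM in ET, against 273, 293 and 230.5 TPM in CONT. Mrpl30, a homologue of bacterial L30, was at 174, 203 and 183 TPM in ET, against 186, 202 and 186 TPM in CONT. In each of these 3 genes the groups overlapped. Mrpl51 (156 ± 19.4 TPM in ET and 169 ± 9.02 TPM in CONT, SD, n = 3 each) and Mrpl52 (96.6 ± 13.3 TPM in ET and 108 ± 5.88 TPM in CONT), both large subunit proteins specific to mitochondria, came next. In all 6 libraries these 5 genes kept this order among themselves, while Mrpl12, the sixth, was above Mrpl52 in ET replicate 2 and CONT replicate 2.

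At the low end, Mrpl1, which forms a mobile stalk of the large subunit, was at 9.23 ± 1.74 TPM in ET and 8.35 ± 1.37 TPM in CONT. Mrps30, a large subunit protein in spite of its symbol, was at 9.51 ± 1.51 TPM in ET and 9.10 ± 1.12 TPM in CONT. Mrps22, a small subunit protein specific to mitochondria, was at 9.26 ± 1.54 TPM in ET and 9.49 ± 0.969 TPM in CONT, and Mrps2, a homologue of bacterial S2, at 9.54 ± 1.44 TPM in ET and 9.31 ± 1.35 TPM in CONT (SD, n = 3 each). The levels of these 4 genes lay within each other's spread. Mrpl19, a homologue of bacterial L19, was at 11.3 ± 1.16 TPM in ET and 13.03 ± 1.39 TPM in CONT, and it shares 36% of its exon bases with Gcfc2 on the opposite strand. The counting is not stated to use strand, so reads of such a pair cannot be told apart.

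**Figure D2:**
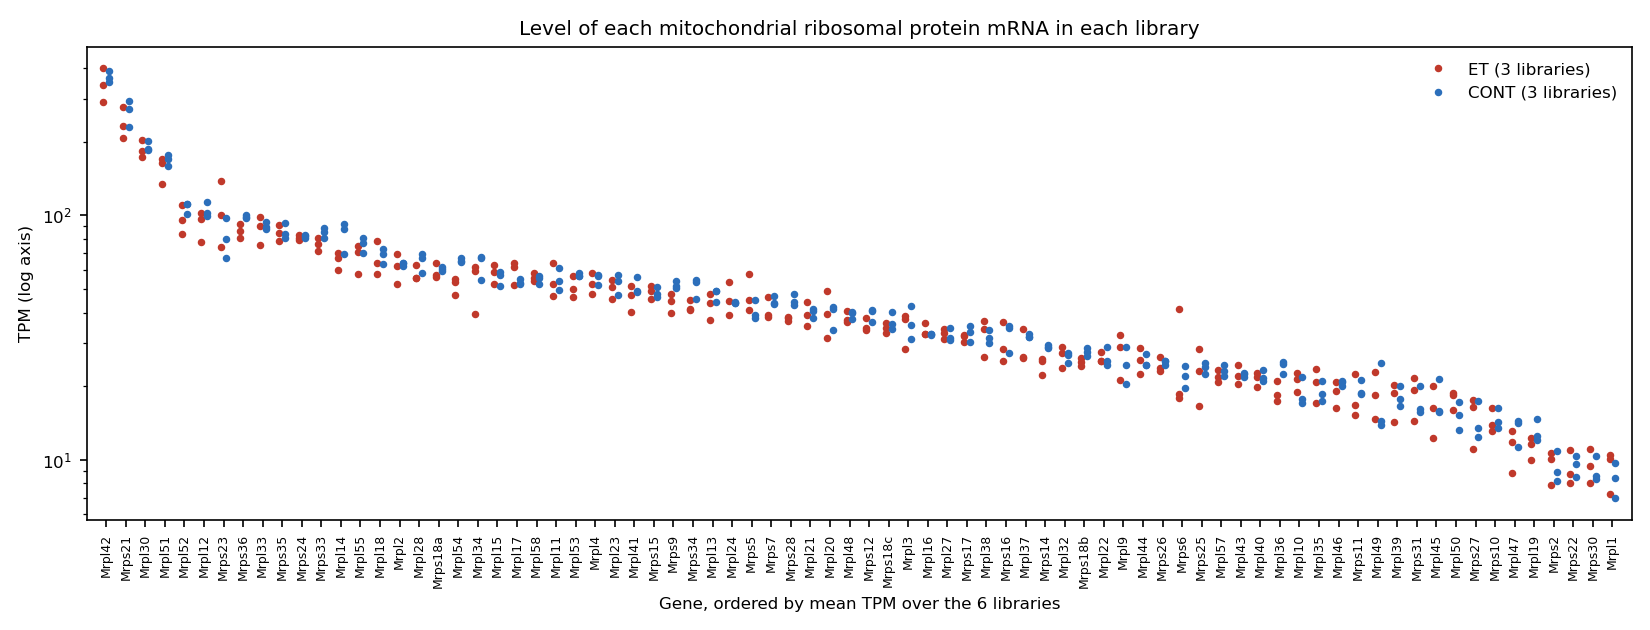
TPM of each of the 78 genes in each library on a log axis, ordered by the mean over the 6 libraries, with ET before CONT. The order runs from Mrpl42 (355.6 TPM) to Mrpl1 (8.79 TPM), and within most genes the libraries lie close together beside the distance between genes.

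The genes Mrps18a, Mrps18b and Mrps18c descend from the single bacterial protein S18, and their products hold different places in the mitochondrial ribosome. Mrps18c takes the place of bacterial S18, Mrps18b is a further protein of the small subunit, and Mrps18a sits in the large subunit. Mrps18a had the highest level of the 3 in every library, at 58.8 ± 4.16 TPM in ET and 60.2 ± 1.17 TPM in CONT. Mrps18c followed at 34.6 ± 1.52 TPM in ET and 36.8 ± 2.97 TPM in CONT, and Mrps18b had 25.1 ± 0.9403 TPM in ET and 27.6 ± 1.11 TPM in CONT (SD, n = 3 each). Mrps18c shares 23.2% of its exon bases with the same-strand gene Gm43511, and Mrps18b 30.5% with the opposite-strand gene Gm16279.

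The study's single contrast set the ethanol-treated ventricles against the maltose-dextrin ones. No mitochondrial ribosomal protein gene passed the test, and 74 of 78 had a fitted level that was lower in ET. In the quasi-likelihood test of edgeR, Benjamini-Hochberg adjusted over all 15727 tested genes, 0 of 78 had an adjusted p under 0.05, and the lowest was 0.496 for Mrpl54. Over all tested genes 0 passed as well (0%), 1360 had an unadjusted p under 0.05, limma-voom called 0 genes and DESeq2 185 (1.18%). None of those 185 was among the 78, whose lowest adjusted p in DESeq2 was 0.159. The log2 fold change of ET over CONT was below 0 in 74 of 78 genes (94.9%), against 48.1% of all tested genes. Its median was -0.23 (quartiles -0.34 and -0.17), against 0.01 over all tested genes. An unadjusted p under 0.05 with a lower value in ET was found for 14 of the 78 (17.9%), against 4.46% of all tested genes. CPM (counts scaled to library size by TMM) did not overlap between groups in 23 genes (29.5%), all lower in ET, against 8.36% of all tested genes that were lower and 6.89% that were higher without overlap. In bulk tissue, fewer cells of a type and less RNA per cell cannot be told apart.

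The size of this difference depended on the scaling. In log2(TPM + 1) the median over the 78 was -0.05 with 52 genes lower, while the median over all tested genes was 0.15 and 27.6% of all genes were lower. With library totals as the only scaling the 78 had a median of -0.14 and all genes one of 0.12. Relative to the median of all genes in the same fit, the median of the 78 was -0.25 in the edgeR fit. In the 5 other scalings it was from -0.26 to -0.19, with 14114 genes as the background in both TPM fits. Of the 78 genes, 73 lay below the all-gene median of the fit in all 6. TPM did not overlap between groups in 9 genes, all lower in ET (11.5%), against 3.27% of all tested genes that were lower and 12.3% that were higher without overlap.

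**Figure D3:**
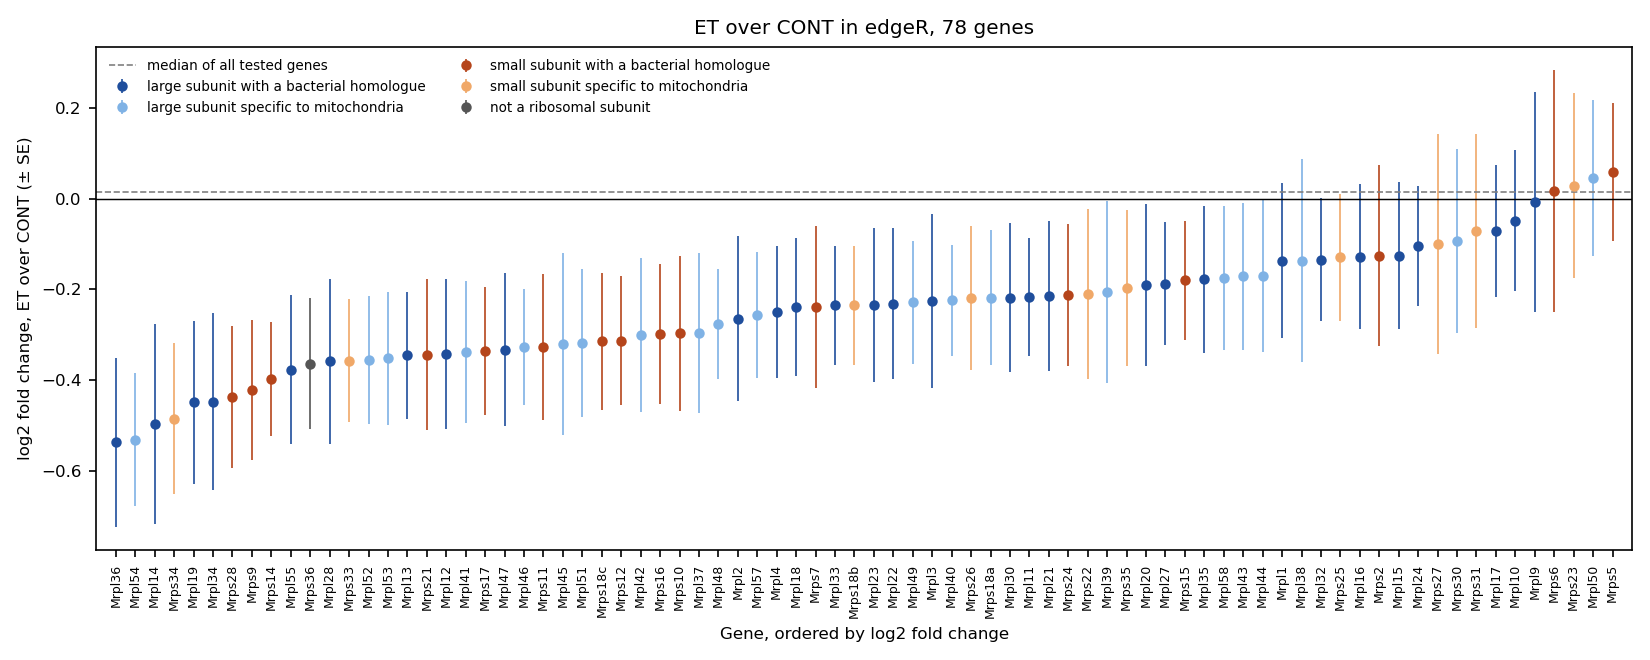
The log2 fold change of ET over CONT (± SE, edgeR) for each of the 78 genes, ordered by size and coloured by subunit and by whether a bacterial homologue exists, beside the median of all tested genes (0.01). Values run from -0.54 (Mrpl36) to 0.06 (Mrps5), and none passed the test.

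The 10 genes with the lowest p come from both subunits. Their levels are given in TPM, while their log2 fold changes (± SE) are those of edgeR in CPM. In log2(TPM + 1) the fold changes were smaller in size, from -0.34 (Mrpl54) to -0.13 (Mrpl46). On that scale Mrps14 had -0.24, Mrps28 -0.24, Mrps9 -0.23, Mrps36 -0.19 and Mrps33 -0.16. Mrpl54, a large subunit protein specific to mitochondria, was at 54.9, 47.1 and 53.2 TPM in ET, against 64.7, 66.8 and 65.2 TPM in CONT. All 3 ET libraries were below all 3 CONT libraries, and its log2 fold change in CPM was -0.53 ± 0.15 (SE, edgeR adjusted p 0.496). Mrps14, a homologue of bacterial S14, was at 25.8, 25.4 and 22.3 TPM in ET, against 28.8, 29.4 and 28.99 TPM in CONT. Here too the groups did not overlap, with a log2 fold change of -0.40 ± 0.13. Mrps28, a homologue of bacterial S1, was at 36.9, 38.2 and 38.03 TPM in ET, against 44.2, 47.5 and 43.02 TPM in CONT. The ET libraries lay close together below the CONT libraries (-0.44 ± 0.16).

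Mrps9, a homologue of bacterial S9 with an NRF1 match at its start, was at 44.8, 47.7 and 39.9 TPM in ET, against 51.2, 53.8 and 50.6 TPM in CONT, again with no overlap (-0.42 ± 0.15). Mrpl36, a homologue of bacterial L36, was at 18.4, 17.3 and 21.01 TPM in ET, against 25.02, 24.6 and 22.4 TPM in CONT. Its log2 fold change was the lowest of the 78 (-0.54 ± 0.19), and its groups did not overlap in TPM but did in CPM. Mrps36 was at 86.6, 92.2 and 80.8 TPM in ET, against 99.99, 98 and 97.9 TPM in CONT (-0.36 ± 0.14). Its product was named as a ribosomal protein but is known as a subunit of the 2-oxoglutarate dehydrogenase complex of the tricarboxylic acid cycle, and its groups did not overlap.

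Mrps33, a small subunit protein specific to mitochondria, was at 80.5, 76.2 and 71.5 TPM in ET, against 85.6, 88.7 and 80.7 TPM in CONT, with no overlap (-0.36 ± 0.14). Mrpl46 (-0.33 ± 0.13) and Mrpl52 (-0.36 ± 0.14), both of the large subunit, did not overlap between groups in CPM but did in TPM. Mrps34, a small subunit protein specific to mitochondria, had -0.49 ± 0.17 and no overlap. It shares 63.4% of its exon bases with Mapk8ip3 on the opposite strand and 36.97% with Nme3 on its own, so its value is uncertain. Mapk8ip3 itself had a log2 fold change of -0.40 ± 0.14 and Nme3 one of -0.36 ± 0.19. In all, 14 of the 78 genes share over 10% of their exon bases with an opposite-strand gene, among them Mrpl46 (12.2%, with Mrps11). Over 10% is shared with same-strand genes in 5 of the 78, the highest share being that of Mrpl53 with Gm42688 (88.0%).

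On GRCm38, Mrpl54 (ENSMUSG00000034932) lies on chromosome 10 at 81264713 to 81266934 (minus strand) and Mrps14 (ENSMUSG00000058267) on chromosome 1 at 160195215 to 160202170 (plus strand). Mrps28 (ENSMUSG00000040269) lies on chromosome 3 at 8802146 to 8923918 (minus strand) and Mrps9 (ENSMUSG00000060679) on chromosome 1 at 42851233 to 42905683 (plus strand). Mrpl36 (ENSMUSG00000021607) lies on chromosome 13 at 73328513 to 73332178 (plus strand) and Mrps36 (ENSMUSG00000061474) on chromosome 13 at 100735955 to 100744659 (minus strand). Values are for whole genes, not for single exons.

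A further pair of genes have known tasks beyond building the ribosome. Mrpl12, a stalk protein that binds translation factors and has been reported to bind the mitochondrial RNA polymerase, was at 96.9, 102 and 77.8 TPM in ET, against 102, 113 and 99.1 TPM in CONT. The groups overlapped, and the log2 fold change in CPM was -0.34 ± 0.17 (edgeR adjusted p 0.583). Mrpl58, a peptidyl-tRNA hydrolase that frees stalled ribosomes, was at 53.7, 55.3 and 57.8 TPM in ET, against 55.2, 56.4 and 52.1 TPM in CONT. Its log2 fold change was -0.18 ± 0.16 in CPM and 0.03 in log2(TPM + 1), so no direction is given.

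The genes without a lower value in ET were Mrps5, Mrpl50, Mrps23 and Mrps6. Mrps5, a homologue of bacterial S5, was at 44.9, 57.5 and 40.9 TPM in ET, against 38.1, 38.98 and 45 TPM in CONT. Mrps23, a small subunit protein specific to mitochondria, was at 74.1, 138 and 100.2 TPM in ET, against 66.9, 80.2 and 97.9 TPM in CONT. Both overlapped between groups, with log2 fold changes in CPM of 0.06 ± 0.15 and 0.03 ± 0.20. Mrpl50, of the large subunit, had 0.05 ± 0.17, and Mrps6 had 0.02 ± 0.27. With upper-quartile scaling the signs of Mrpl50, Mrps23 and Mrps6 turned. Mrps6, a homologue of bacterial S6 chosen for mention after its values were seen, was at 41.5, 18.5 and 17.9 TPM in ET, against 19.6, 22.01 and 24.1 TPM in CONT. ET replicate 1 was the highest library and the other ET libraries were below all CONT libraries. Mrps6 shares 19.9% of its exon bases with same-strand genes, among them Slc5a3, a myo-inositol transporter, which was at 6.19, 3.12 and 1.01 CPM in ET, against 2.93, 3.15 and 2.604 CPM in CONT.

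By kind, the 30 large subunit genes with a bacterial homologue were all lower in ET in the edgeR fit, with a median of -0.23. Of the 21 large subunit genes specific to mitochondria 20 were lower (-0.26), of the 16 small subunit genes with a bacterial homologue 14 (-0.31), and of the 10 small subunit genes specific to mitochondria 9 (-0.20). Differences between these kinds were not tested, and no gene in these counts passed the test. In log2(TPM + 1), 52 of the 78 were lower in all.

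The distance of the ET libraries from the CONT libraries was uneven. The mean log2 CPM of the 78, centred on the average over the libraries, was -0.31, -0.03 and -0.03 in ET replicates 1 to 3, against 0.12, 0.24 and 0.0037 in CONT replicates 1 to 3. ET replicate 1 was the lowest library in 66 of the 78 genes and CONT replicate 2 the highest in 59. ET replicates 2 and 3 and CONT replicate 3 lay close to each other. Without ET replicate 1, 63 of the 78 genes were lower and the median was -0.14 (all tested genes -0.01). Without any other single library, 72 to 76 were lower, with medians from -0.30 to -0.18. Without ET replicate 1 and CONT replicate 3 together, 64 were lower, with a median of -0.19. In that fit 828 of 15714 genes (5.27%) passed the edgeR test, and 0 of the 78 did. The lowest adjusted p of the 78 was 0.0503 there, just above the threshold of 0.05. An unadjusted p under 0.05 was found for 24 of the 78 and for 4360 of the 15714 genes. Without CONT replicate 3 alone, CPM did not overlap in 53 of the 78 (67.9%), against 19.0% of all tested genes. Without ET replicate 1 alone, it did not overlap in 24 (30.8%), against 18.8% of all tested genes.

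Within the sets of libraries split by the effective length of Myh6, the difference had unequal sizes. In the set with ET replicate 1 and CONT replicates 1 and 2, the median difference in log2 CPM was -0.51 (77 of 78 lower, all tested genes -0.01). In the set with ET replicates 2 and 3 and CONT replicate 3, it was -0.04 (46 of 78 lower, all tested genes -0.0028). Each of these values rests on a single ET or a single CONT library. With the set added as a covariate in edgeR, 77 of 78 were lower, with a median of -0.26, and 0 passed. Mrpl54 (-0.68 and -0.34), Mrps14 (-0.56 and -0.22) and Mrps9 (-0.68 and -0.17) were lower in both sets. Their groups did not overlap in CPM, so any split with both groups in each set must show this direction. Mrpl36, whose groups overlapped in CPM, had -0.82 and -0.20. These genes were named for low p in the same libraries, so their direction in the sets is no separate evidence.

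Some cell type marker lists were extreme in the same library as these levels, and others were not. In ET replicate 1 the 10 ventricular cardiomyocyte markers were also at their lowest mean log2 CPM (-0.68, against 0.03 and 0.01 in the other ET libraries and 0.13, 0.28 and 0.23 in CONT). Their summed level was 45932 to 57813 TPM in ET and 61258 to 64474 TPM in CONT, and 9 of 10 were lower in ET. In the same library the 8 fibroblast markers (1.44), the 8 macrophage markers (0.92), the 6 mesothelial markers (3.24) and the 6 atrial markers (3.97) were at their highest. The summed level of the fibroblast markers was 272 to 1007 TPM in ET and 255 to 306 TPM in CONT, with 8 of 8 higher in ET in the fit. Their mean log2 CPM was -0.17 and -0.70 in the other ET libraries and 0.05, -0.30 and -0.31 in CONT, so that only ET replicate 1 stood clearly above CONT and ET replicate 3 was the lowest library. That of the macrophage markers was 146 to 442 TPM in ET and 156 to 170 TPM in CONT, with 8 of 8 higher in the fit. Their mean log2 CPM was -0.33 and -0.24 in the other ET libraries and -0.04, -0.22 and -0.09 in CONT, so that ET replicates 2 and 3 lay below every CONT library. No fibroblast or macrophage marker was at 0 in any library. Of the other lists, adipocyte (1.97) and skeletal muscle markers (0.61) were also highest in ET replicate 1 in mean log2 CPM. Endothelial markers were highest in CONT replicate 1 (0.35, with 0.31 in ET replicate 1), and erythroid markers were lowest there (-1.59). Neutrophil markers were highest in ET replicate 3 (1.48). Some adipocyte, skeletal muscle and neutrophil markers were at 0 in some libraries. The part of cell makeup in the result was not tested.

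**Figure D4:**
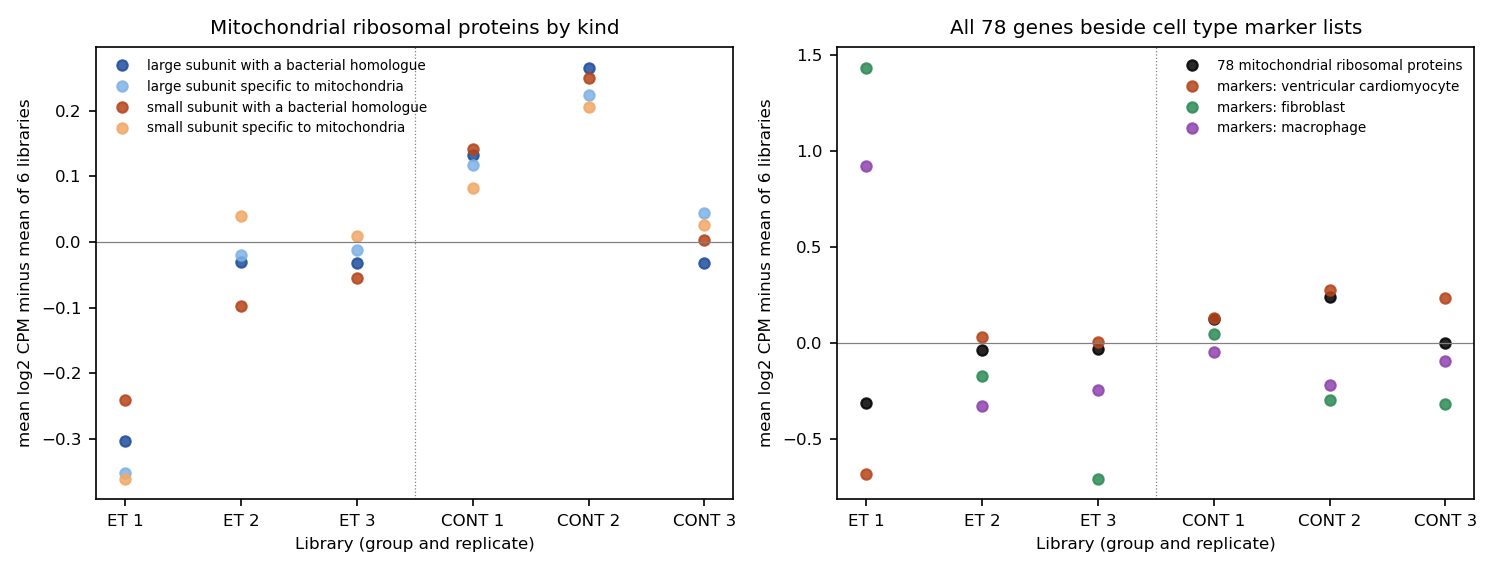
Mean log2 CPM of gene groups in each library, centred on the average over the libraries, with ET libraries left of CONT libraries. The kinds of mitochondrial ribosomal proteins are lowest in ET replicate 1 and highest in CONT replicate 2, and the 78 genes (-0.31 in ET replicate 1) stand beside ventricular cardiomyocyte (-0.68) and fibroblast (1.44) markers.

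Transcript length moved with the result as well. The 78 genes are short, with a median effective length of 873 bases, against 2202 bases over all tested genes. Among the other tested genes the median log2 fold change was -0.18 for up to 500 bases, -0.15 for 500 to 1000 and -0.05 for 1000 to 1500. It was -0.02 for 1500 to 2000, 0.05 for 2000 to 3000, 0.11 for 3000 to 5000 and 0.14 above 5000 bases. Between the quartiles of the 78 (663 and 1225 bases), 38 mitochondrial ribosomal protein genes had a median of -0.25, with 35 lower. The 2324 other genes in that range had a median of -0.11, with 66.0% lower. Across the 78 genes, Spearman's rho between log2 fold change and effective length was 0.36, and across 15649 other genes it was 0.25. These correlations are across genes of the same 6 libraries, and genes are not independent replicates. The part of length in the result was not tested.

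**Figure D5:**
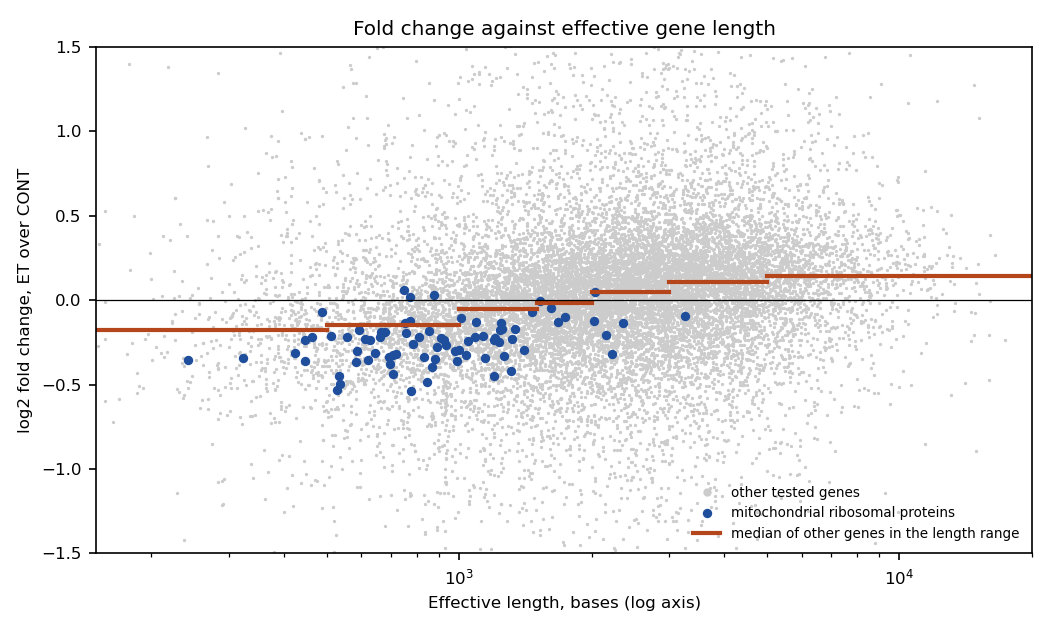
The log2 fold change of ET over CONT against effective gene length (log axis) for the 78 mitochondrial ribosomal protein genes and the other tested genes, with the median of the other genes in each length range. These medians run from -0.18 up to 500 bases to 0.14 above 5000 bases, and 367 tested genes outside the 78 lie beyond the axes.

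None of the other genes of mitochondrial gene expression passed the edgeR test (0 in each list that follows), and Myc alone among them passed in DESeq2. The 5 ribosomal subunits with other names (Dap3, Chchd1, Aurkaip1, Ptcd3 and Gadd45gip1) were all lower in ET, with a median of -0.24. Gadd45gip1, which sits at the exit tunnel of the large subunit, was at 27.01, 30.9 and 31.7 CPM in ET, against 44.5, 47.8 and 31.8 CPM in CONT (-0.47 ± 0.18). Its groups did not overlap in CPM but did in TPM. The mitochondrial ribosomal RNAs mt-Rnr1 (-0.19 ± 0.26) and mt-Rnr2 (-0.12 ± 0.25) differed by less than their SE.

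Of 14 translation factors 10 were lower, with a median of -0.08. Rmnd1, required for mitochondrial translation, was at 28.5, 30.98 and 29.3 CPM in ET, against 39.5, 43.3 and 33.99 CPM in CONT, without overlap in CPM but with overlap in TPM (-0.40 ± 0.13, edgeR adjusted p 0.515). The elongation factor Tufm had -0.35 ± 0.20 and Tsfm, its exchange factor, -0.39 ± 0.16. Of 20 mitochondrial aminoacyl-tRNA synthetases and related enzymes, which charge tRNAs with amino acids, 12 were lower, with a median of -0.05. Cars2, for cysteine, had -0.34 ± 0.14 and Sars2, for serine, -0.43 ± 0.18.

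Of 23 genes of ribosome assembly 18 were lower, with a median of -0.14. Mrm1, which methylates the large ribosomal RNA, was at 7.84, 8.94 and 8.56 CPM in ET, against 10.8, 12.6 and 12.8 CPM in CONT, without overlap in CPM but with overlap in TPM (-0.51 ± 0.14, edgeR adjusted p 0.478). Of 13 tested genes of mitochondrial transcription and RNA handling 8 were lower, with a median of -0.16. Slirp, which stabilises mitochondrial mRNAs together with Lrpprc, was at 20.3, 20.7 and 18.9 CPM in ET, against 30.1, 31.8 and 24.1 CPM in CONT, without overlap in CPM but with overlap in TPM (-0.52 ± 0.14, edgeR adjusted p 0.482). In mean log2 CPM these lists were also lowest in ET replicate 1, at -0.43 for translation factors, -0.39 for synthetases, -0.36 for assembly and -0.45 for transcription and RNA handling.

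The 12 nuclear regulators of mitochondrial genes had a median of 0.09, with 5 lower and 7 higher. Their median effective length was 3253 bases, against 873 for the 78. It was 1639 bases for translation factors, 1946 for synthetases, 1753 for assembly and 1629 for transcription and RNA handling. Other tested genes of 3000 to 5000 bases had a median log2 fold change of 0.11. The part of length in the differences between these lists was not tested. Myc, a transcription factor that promotes growth and ribosome synthesis, was at 6.51, 5.76 and 18.5 CPM in ET, against 2.93, 2.13 and 3.61 CPM in CONT. The groups did not overlap, ET replicate 3 was the highest, and the log2 fold change of 1.82 ± 0.48 did not pass in edgeR (adjusted p 0.478) but did in DESeq2 (adjusted p 0.0247). Gabpb1, the partner of GABPA at ETS sites, had -0.26 ± 0.15, and Pprc1, a coactivator of the PGC-1 family, -0.30 ± 0.23. The factors of the motifs searched above had -0.04 ± 0.15 (Nrf1), 0.07 ± 0.15 (Gabpa) and 0.12 ± 0.12 (Yy1, edgeR adjusted p 0.741). Yy1 was higher in ET without overlap in CPM and TPM, as were 6.89% and 12.3% of all tested genes.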

How the data were processed

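Left ventricles were profiled in 6 libraries, 3 ET and 3 CONT. Per the submitters' processing notes the tools were STAR 2.7.0f and RSEM 1.2.31 and the build mm10. The annotation release and any use of strand were not found in the labels. The authors deposited expected counts per gene, not normalized, and TPM and FPKM values, per the file headers. The expected counts, rounded to whole numbers, were filtered by filterByExpr (minimum count 10, minimum total count 15) and scaled by TMM (factors 0.920 to 1.19). ET was compared with CONT by the robust quasi-likelihood test of edgeR (both sides, Benjamini-Hochberg threshold 0.05). The SE is the size of the log2 fold change divided by the square root of F. For limma, deposited TPM entered as log2(TPM + 1) or log2(TPM + 0.1) where mean TPM reached 0.5. Effective length was recovered from expected counts and deposited FPKM. Library means of log2 CPM used an offset of 0.5. Versions were R 4.3.3 with edgeR 4.0.16, with limma 3.58.1 and with DESeq2 1.42.0, and Python 3.11.15. The edgeR step was tested on simulated data.

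The members and gene lists were chosen with earlier results of these data known. Named are the 10 members with the lowest p, the 5 highest and 5 lowest in mean TPM, the 3 largest of opposite sign, Mrps18a, Mrps18b, Mrps18c, Mrpl12, Mrpl58 and Mrps36, and at most 3 genes of each other list by lowest p. Nrf1, Gabpa and Yy1 were named besides, because their motifs were searched for. Coordinates and exon overlaps come from GENCODE vM21 (GRCm38), which held all 78 members. Promoter windows of Mrpl4, Mrpl13, Mrpl15, Mrpl19, Mrpl38, Mrpl54, Mrps28, Mrps34 and Mrps35 were not used here. Alternatives were other scalings, filters and tools, a term for the library set, and left-out libraries.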

Additional observations from a re-analysis of the deposited data

How the results depend on the processing

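No paired analysis was possible because replicate numbers were assigned by accession order alone. No member was called under the 18 alternatives. The lowest adjusted p of a member was 0.0503, in the edgeR fit without CONT replicate 3 and ET replicate 1. Over all genes, DESeq2 called 185, log2(TPM + 0.1) called 2, and the fit without CONT replicate 3 and ET replicate 1 called 828, while the others called 0. The median log2 fold change of the 78 genes, -0.23, was -0.047 in log2(TPM + 1) and -0.049 in log2(TPM + 0.1), where the all-gene median was 0.15 and 0.18, and from -0.30 to -0.14 with libraries left out. From 63 to 76 genes were lower with libraries left out. The count of genes without overlap in CPM, 23, was 53 without CONT replicate 3, 36 without ET replicate 2, 34 without ET replicate 3 and 23 to 25 without each other library, alternatives chosen after seeing the data. The share of all tested genes, 8.36% with all libraries, was then 19.0%, 12.2%, 14.4% and 10.2% to 18.8%, so it too was higher with fewer libraries. Of 486 log2 fold changes of the 27 named genes under these alternatives, 462 kept their sign and 24 turned it. In log2(TPM + 1) Mrpl58 (0.027), Mrpl1 (0.12), Mrps2 (0.029) and Mrps30 (0.053) turned, and in log2(TPM + 0.1) they had 0.027, 0.14, 0.032 and 0.058. With the set term Mrps5 had -0.0050, Mrpl50 -0.059 and Mrps23 -0.094, and with upper-quartile factors Mrpl50 had -0.0041 and Mrps23 -0.021. With libraries left out the values ran from -0.073 to 0.23 for Mrpl50, -0.23 to 0.035 for Mrpl1, -0.31 to 0.12 for Mrps2, -0.31 to 0.14 for Mrps30, -0.088 to 0.19 for Mrps5 and -0.14 to 0.22 for Mrps23. The cause was not tested.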
